A study of Mus musculus with 2 samples.

Results

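T cells that carried transcripts of Tcf7 but none of Cd4 or Cd8b1 were examined among leukocytes sorted from B16-F10 tumours, a mouse melanoma line implanted in the skin. A cell entered the group with at least 300 detected genes, at most 10% mitochondrial UMIs (unique molecular identifiers, 1 per counted transcript), at least 1 UMI of Cd3e and of Tcf7, and 0 UMIs of Cd4, Cd8b1, Foxp3, Trdc, Csf1r and Cd79a. The cells were thus chosen by their measured UMIs of these genes, so the levels of those 8 genes are no result. The rule found 375 cells among 22490 kept barcodes (1.67%) and among 7041 T cells (5.33%), a T cell being a kept barcode with Cd3e and without Csf1r or Cd79a. They are called Tcf7+ Cd4- Cd8b1- cells below.

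The mice were males of 8 to 12 weeks. Trex1 iKO mice were Trex1 fl/fl-R26CreERT2-ki/wt, and control mice were Trex1 wt/fl-R26CreERT2-ki/wt, which is heterozygous for the conditional allele and not wild type. All carried 1 copy of a tamoxifen-inducible Cre expressed from the Rosa26 locus, which is not limited to T cells. All received 1 mg tamoxifen on 3 days from day 5 after implantation, and the tumours were harvested on day 14. Sorted live CD45+ cells of 4 hashtagged samples per genotype went into 1 pool per genotype for 3' droplet sequencing, which means that the genotype cannot be told apart from the pool. The labels do not say whether a hashtagged sample is 1 mouse, and p-values measure only the spread between these samples.

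Across the 8 samples, the kept barcodes numbered 1304 to 5901 per sample and the total UMI counts ran from 17111065 to 96457227. Medians per deposited barcode lay between 12535.5 and 14221 UMIs for iKO and between 5794 and 11490 UMIs for control. No barcode was shared within a pool and 45 were shared between the pools, which included 3 of the 375 cells. Trex1 had 2 UMIs in all kept cells and 0 in the 375, so it checked no label here. The iKO samples 1 to 4 held 23, 36, 21 and 31 Tcf7+ Cd4- Cd8b1- cells, and the control samples 68, 64, 73 and 59. Their median UMI count was 6314 per cell, from 2410 to 49380. The 4 iKO medians were 8290, 8418.5, 7002 and 5993 UMIs, and the 4 control medians were 6276, 6216.5, 5404 and 5761.

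Tcf7 encodes TCF1, a transcription factor of naive, memory and stem-like T cells, and Lef1 encodes its close relative. Most mature alpha-beta T cells carry either CD4 or CD8, while gamma-delta T cells, NKT cells and some other T cells carry neither. Receptors first described on NK cells are shared by several T cell subsets. They include the Ly49 family, encoded by the Klra genes, which bind MHC class I, and the NKG2 family, encoded by Klrc1, Klrc2 and Klrk1. Txk encodes a Tec family kinase of T and NK cells, Cd7 a surface protein of T and NK cells, and Zbtb16 encodes PLZF, the factor that directs NKT and other innate-like T cells.

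Most of the 375 cells held transcripts of Trac, the receptor alpha constant gene, which was detected in 82.9% of them. Cd3d, a CD3 subunit, was detected in 94.1%, and Trbc2, a receptor beta constant gene, in 94.1%. Because detection depends on depth, every cell was also thinned at random to 2000 UMIs, and all shares in the next paragraphs that are called thinned were counted after that step. Shallower cells were left out of it, which were 0 of the 375, 61 macrophages and at most 2 cells of any other class. Trac was then in 54.7% of the cells, against 62.9% of Tcf7+ T cells with Cd8b1 (744 cells), 60.4% of Tcf7+ T cells with Cd4 (333 cells), 16.9% of T cells with Trdc (161 cells) and 5.88% of NK cells (172 barcodes with Ncr1 and without Cd3e). Free RNA sets a floor for such shares. In 8378 macrophages, which should lack the gene and had a median of 14668.5 UMIs before thinning, Trac was found in 1.58% after thinning. By sample the thinned share with Trac was 56.1% ± 9.68 (SD, n = 8 samples). Cd3d and Trbc2 did not set alpha-beta T cells apart here. Without thinning, Trbc2 was in 88.2% of the T cells with Trdc and in 59.9% of NK cells. Cd3d was found in a larger share of the T cells with Trdc than of the 375 cells.

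The genes that came with the question of lineage gave no single answer, and they are described without a test. Txk was found in 44.8% of the cells after thinning, Lef1 in 25.3%, Klrc2 in 26.9%, Klra7 in 24.8%, Cd7 in 23.2% and Zbtb16 in 0.8%. The Tcf7+ CD8 cells held similar shares for Txk (38.5%) and Lef1 (24.1%), lower ones for Klrc2 (15.5%) and Cd7 (16.6%), and a share of 4.85% for Klra7. The Tcf7+ CD4 cells were below the Tcf7+ Cd4- Cd8b1- cells for all 6 except Zbtb16 (0.906%), with Klra7 in 1.21%. The Trdc+ T cells were close for Klrc2 (25.6%), Lef1 (21.9%) and Ikzf2, the gene of Helios (43.1% against 43.5%), above for Txk (58.8%), Cd7 (38.8%) and Zbtb16 (5.62%), and below for Klra7 (8.12%). Macrophages held 0.144% for Klra7 and for Lef1, and 0.842% at most among the 6 genes.

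In UMIs per 1000000 summed UMIs of a sample's cells (CPM), Klra7, the gene of Ly49G2, stood at 231.5, 402.6, 197.6 and 129.6 in iKO samples 1 to 4 and at 203.5, 151.7, 139.2 and 207.1 in control samples 1 to 4. Lef1 stood at 135.0, 111.2, 209.5 and 168.8 CPM in iKO and at 170.6, 187.8, 143.5 and 177.1 CPM in control. Txk stood at 361.7, 474.7, 431.0 and 208.1 CPM in iKO and at 380.7, 325.1, 297.6 and 439.1 CPM in control. The iKO and control values of these genes overlapped, and each was present in every sample. Klrc2 stood at 159.2, 129.2, 221.5 and 70.7 CPM in iKO and at 188.1, 195.0, 229.1 and 267.0 CPM in control. Cd7 stood at 130.2, 324.5, 119.7 and 137.4 CPM in iKO and at 159.7, 149.3, 145.6 and 167.2 CPM in control, with iKO sample 2 far above the other 3 iKO samples. Zbtb16 was at 0, 0, 6.0 and 3.9 CPM in iKO and at 2.2, 14.4, 6.4 and 0 CPM in control, which rests on 12 UMIs in 10 of the 375 cells. The rule's own genes stood at 361.8 to 564.8 CPM for Cd3e and at 294.2 to 409.3 CPM for Tcf7, with no sample without them.

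**Figure D1:**
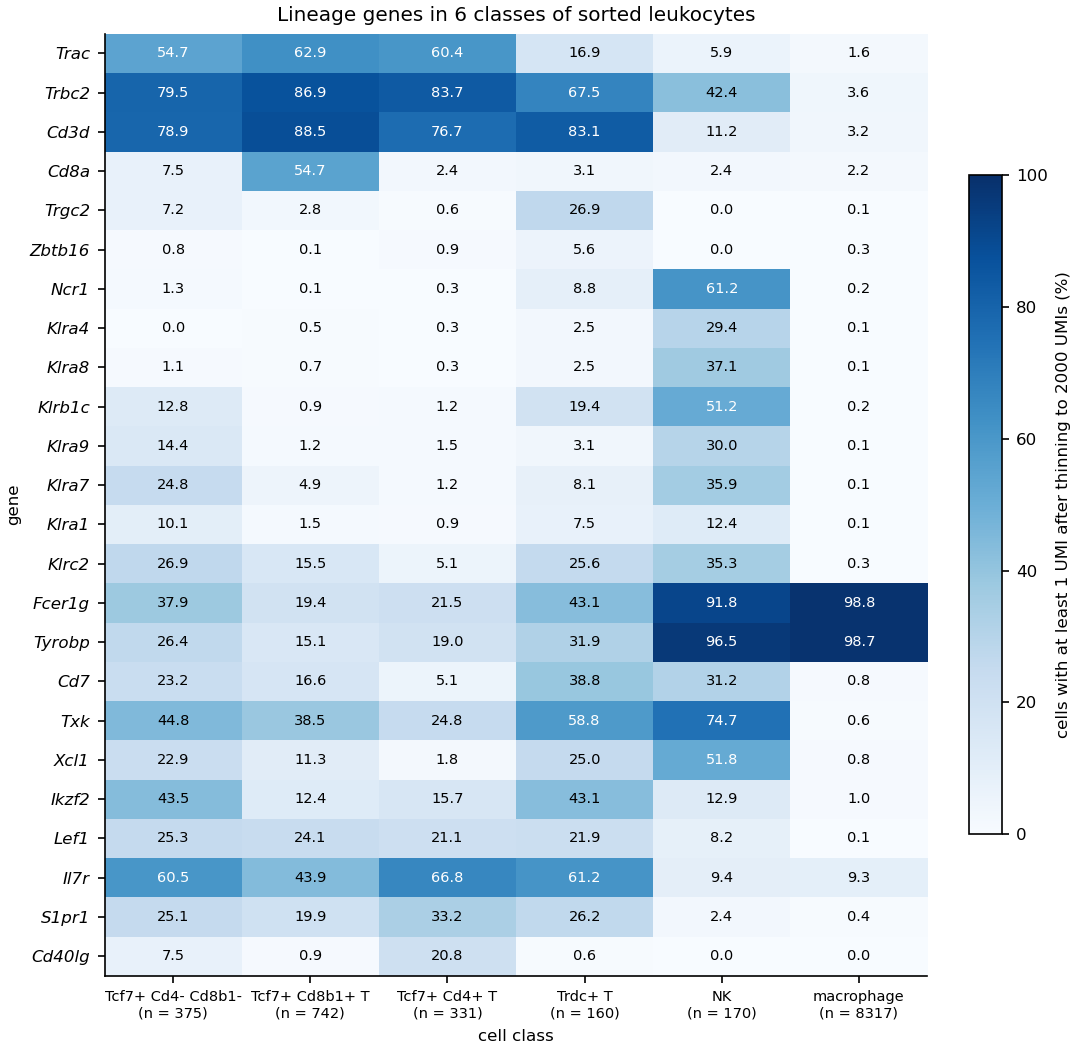
Each row is a gene, each column a cell class with its number of cells, and each cell of the grid gives the share of cells with at least 1 UMI after thinning to 2000 UMIs (%). The first column holds the Tcf7+ Cd4- Cd8b1- cells: Trac, Trbc2 and Cd3d are close to the other Tcf7+ T cells, Ncr1, Klra4 and Klra8 are near 0, and Klra7 and Ikzf2 stand at 24.8% and 43.5%.

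The 12 listed NK cell genes were found in unequal shares of the cells after thinning. Ncr1, the gene of NKp46, was in 1.33%, Klra8 in 1.07% and Klra4 in 0%, against 37.1% for Klra8 and 29.4% for Klra4 in NK cells, whose class was chosen by Ncr1. Without thinning these were 12, 5 and 1 of the 375 cells. Gzma was in 4.27%, Klri2 in 4.53%, Prf1 in 4.80% and Eomes, a factor of NK and memory T cells, in 6.40%. Klrb1c, the gene of NK1.1, was in 12.8%, Klra9 in 14.4% and Klre1 in 21.3%, each above Tcf7+ CD8 cells (0.943%, 1.21% and 10.9%) and below NK cells (51.2%, 30.0% and 65.9%). Ly49 genes are near-identical to each other, so reads may be split between them, and their separate levels are uncertain. Fcer1g and Tyrobp, adaptors of NK receptors, were found in 37.9% and 26.4% of the cells after thinning, but macrophages held them in 98.8% and 98.7%, so free RNA can add to these shares. The part of free RNA in them was not tested. UMIs of at least 2 of Ncr1, Klrb1c, Klra8, Klre1 and Tyrobp were found in 14.1% ± 5.76 of the cells after thinning (SD, n = 8 samples). The sample means were 89.6% in NK cells, 26.1% in Trdc+ T cells, 1.72% in Tcf7+ CD8 cells and 0.99% in macrophages. Those of NK cells and Trdc+ T cells cover only the 4 samples with at least 20 such cells, and pooled they were 90.0% and 19.4%. The NK share is partly set by the class rule, since every NK cell was chosen with 1 of these genes.

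Innate-like T cell genes also differed among themselves, and the rule had already removed cells with a Trdc UMI. Il18r1, a receptor subunit for IL-18, was in 32.3% of the cells after thinning and Cxcr6, a chemokine receptor, in 18.1%, against 21.3% and 23.6% of Tcf7+ CD8 cells. Trav11, the alpha segment of invariant NKT cells, was found in 8 cells without thinning, and Trav11d in 0 of 375, which allows up to 0.8% of cells with a UMI and sets no limit on cells that express it. Of the genes listed for innate lymphoid cells, Rora was in 15.5% and Gata3 in 10.7% of the cells after thinning, which T cells also express, while Il17rb was in 3 cells without thinning, Il1rl1 in 2 and Il13 in 0. A UMI of a gamma receptor constant gene (the Tcrg-C genes) was found in 12.2% ± 2.99 of the cells after thinning, against 71.6% of Trdc+ T cells. Sox13 and Trdv4, which are listed for gamma-delta T cells, were at 0 UMIs in all 375 cells. Without thinning they were in only 6.21% and 10.6% of Trdc+ T cells. Trdv4 was in 24.4% of NK cells, so it does not mark gamma-delta T cells alone here. Trgv2 and Trgc2 of the same list were in 17.1% and 14.9% of the 375 cells. Cd8a, which the rule did not use, was found in 21.6% of the 375 cells pooled, and in 26.4% as a mean of samples. After thinning the mean was 7.95% ± 2.57 (SD, n = 8 samples). The pooled thinned share with Cd8a was 54.7% in Tcf7+ CD8 cells and 2.19% in macrophages. After thinning, 68.8% ± 5.96 of the cells (60.9% to 76.6% by sample) held none of Cd8a, Zbtb16, a gamma constant gene or 2 genes of the NK panel. That share depends on depth and was 36.6% without thinning (14.3% to 54.8% by sample).

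The rule rests on low counts. Of the 375 cells, 87 had exactly 1 Cd3e UMI, 122 exactly 1 Tcf7 UMI and 25 both, and Trac was found in 56% of those 25. Just outside the rule lay 86 cells with exactly 1 Cd8b1 UMI and no Cd4. Cd8a was found in 44.2% of them, Ikzf2 also in 44.2%, and Klra7 in 27.9%. A further 126 cells with exactly 1 Cd4 UMI and no Cd8b1 lay just outside. In those, Ikzf2 was found in 23.8%, Klra7 in 5.56% and Cd40lg, the CD40 ligand of helper T cells, in 45.2%.

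The 375 cells were not uniform, and after their values were seen they were sorted into 4 kinds by single genes, which are described with no test. The most frequent kind held Ikzf2, a zinc-finger factor found in regulatory T cells and some CD8 and innate-like T cells. It counted 209 cells (55.7%). Within it, Trac was found in 90.0%, Klra7 in 55.0%, Klrc2 in 63.2%, Lef1 in 59.3%, Xcl1, a chemokine for dendritic cells, in 54.5% and Cd8a in 29.7%. Cd40lg was found in 6.7% of these cells. Shares within the kinds are given without thinning unless called thinned, and depth differed between kinds, with a median of 6848 UMIs in this one.

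A second kind had Klra9 or Klrb1c without Ikzf2. It counted 54 cells (14.4%). Il7r was found in 88.9% of them, Id2, an inhibitor of E proteins, in 79.6%, Itga1, a collagen receptor subunit, in 55.6%, Maf, a transcription factor, in 51.9% and Cd40lg in 33.3%. Il7r was also in 76.1% of the kind with Ikzf2. After thinning, Id2 was in 53.7% of the second kind and 28.3% of macrophages, and Maf in 27.8% and 36.4%. The part of free RNA in these shares was not tested. Cd8a was found in 7.4% of this kind and Zbtb16 in 11.1%. Klrc2 was in 74.1%, Lef1 in 61.1% and Xcl1 in 53.7%, so these were not particular to the kind with Ikzf2. The median depth of this second kind was 5276 UMIs. Another kind had none of Ikzf2, Klra9 and Klrb1c and counted 94 cells (25.1%), with a median of 5302.5 UMIs. Trac was found in 88.3% of them, Icos, a costimulatory receptor, in 54.3%, Rora in 52.1%, Lef1 in 44.7% and Cd40lg in 34.0%, with Klra7 in 3.2% and Klrc2 in 10.6%.

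The last kind went against the label of T cells. It had at least 2 UMIs of Fscn1, an actin-bundling gene of mature dendritic cells, and counted 18 cells (4.8%), of which iKO samples 1 to 4 held 3, 1, 1 and 2, and the control samples, in the same order, 3, 2, 2 and 4. The MHC class II gene H2-Aa was found in 100% of these cells, Ccr7 in 88.9%, Flt3 in 77.8% and Ccl22 in 66.7%, with Cd3d in 27.8% and Trac in 16.7%. Their median was 12820 UMIs, and no cell passed the doublet score of 0.25. They stay in the values below because the rule admits them, and counts of genes are also given without them.

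Klra7 was found more often beside Ikzf2. It was in 55.0% of the 211 cells with an Ikzf2 UMI and in 12.8% of those without, at median depths of 6852 and 5555 UMIs. Cd40lg went the other way, with 6.64% of cells with Ikzf2 and 30.5% of cells without. Klrb1c was in 60.6% of the 71 cells with Klra9 and in 17.8% of the others. By sample, the kind with Ikzf2 made up 69.6%, 77.8%, 47.6% and 51.6% in iKO and 50%, 53.1%, 46.6% and 62.7% in control, so the genotypes overlapped. The kind with Klra9 or Klrb1c made up 8.70%, 5.56%, 14.3% and 9.68% in iKO and 23.5%, 18.8%, 12.3% and 11.9% in control, which also overlapped.

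**Figure D2:**
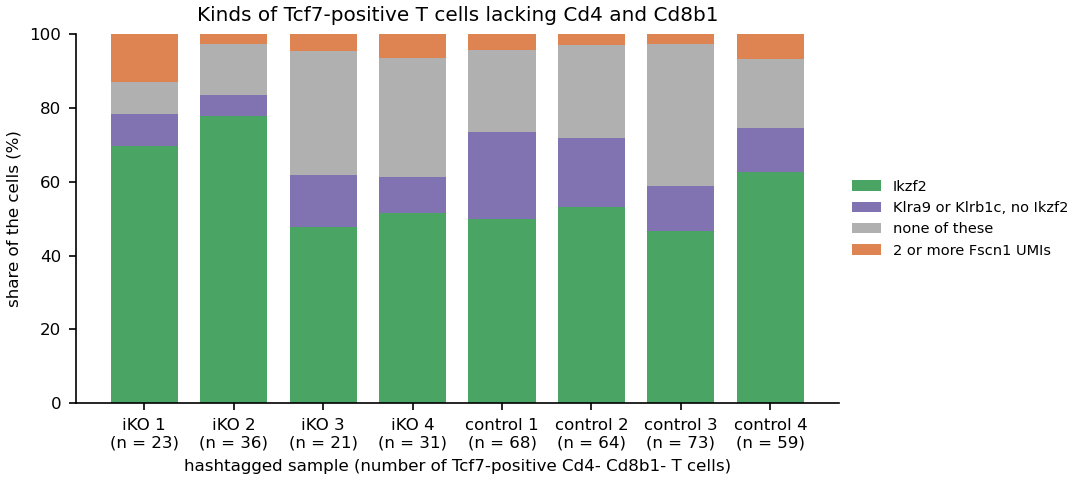
Each bar is 1 hashtagged sample with its number of Tcf7+ Cd4- Cd8b1- cells, and the stacked colours give the share of each kind (%). Cells with Ikzf2 make up between 46.6% and 77.8% of every sample, and cells with at least 2 Fscn1 UMIs make up between 2.74% and 13.0%.

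Tcf7+ Cd4- Cd8b1- cells made up a smaller share of leukocytes in iKO than in control tumours. Among kept barcodes they were 0.594%, 0.610%, 1.61% and 1.26% in the iKO samples 1 to 4, against 3.44%, 3.74%, 2.64% and 2.36% in the control samples. The groups did not overlap, with means of 1.02% ± 0.502 and 3.04% ± 0.650 (SD, n = 4 each). The difference of -2.02 percentage points had an exact permutation p of 0.0286 (two-sided), the smallest that 4 against 4 samples can give. Among T cells the shares were 1.64%, 1.35%, 6.71% and 6.55% in iKO, against 9.54%, 12.6%, 11.4% and 17.5% in control. These groups did not overlap either, with a difference of -8.69 points (exact permutation p = 0.0286).

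Among Tcf7+ T cells alone, a denominator added after the data were seen, the shares were 13.8%, 12.1%, 16.5% and 16.0% in iKO, against 26.5%, 29.5%, 25.6% and 34.1% in control. The difference was -14.3 points (exact permutation p = 0.0286), and over the 3 shares the Benjamini-Hochberg adjusted p of each was 0.0286. Leaving out any 1 sample kept the difference among Tcf7+ T cells between -15.4 and -12.6 points, where the smallest p possible is 0.0571.

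Depth and free RNA moved with these shares. A cell with more UMIs is more likely to show a Cd8b1 or Cd4 UMI and leave the group, and T cells held medians of 15602, 14013, 7503 and 7633 UMIs in iKO samples and 7745, 6646, 6284 and 6384 in control samples. Macrophages, which do not express Cd8b1, held a Cd8b1 UMI in 15.7%, 14.3%, 11.9% and 13.1% of cells in iKO and in 5.46%, 4.10%, 4.54% and 4.91% in control. With every cell thinned to 2000 UMIs before the rule was applied, the difference was -1.39 points among kept barcodes (exact permutation p = 0.0857, and the groups overlapped). It was -7.28 points among T cells and -14.5 points among Tcf7+ T cells (exact permutation p = 0.0286 for both). These groups only just separated. Among T cells, iKO sample 4 was at 8.78% and control sample 1 at 8.99%. Among Tcf7+ T cells, iKO sample 4 was at 41.89% and control sample 4 at 42.03%. Thinning raised the mean share among Tcf7+ T cells to 35.8% (iKO) and 50.3% (control). Unthinned means were 14.6% and 28.9%, so this share depends on depth. With cells of exactly 1 Cd8b1 UMI admitted to the group, the difference was -2.24 points among kept barcodes, -9.83 among T cells and -15.4 among Tcf7+ T cells (exact permutation p = 0.0286 for each).

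**Figure D3:**
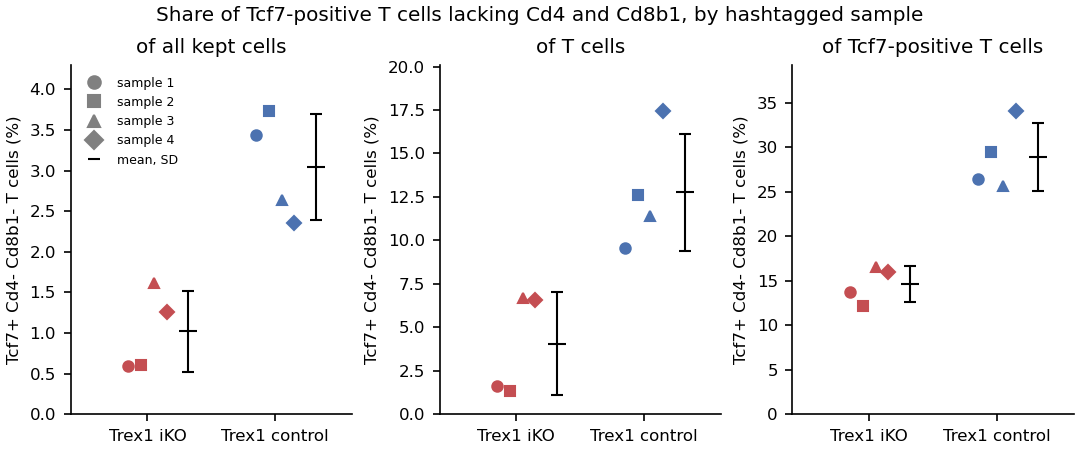
Points are hashtagged samples (4 per genotype), bars the mean and SD, and each panel gives the share of Tcf7+ Cd4- Cd8b1- cells (%) among another denominator. In all panels the 4 iKO samples lie below the 4 control samples.

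The Tcf7+ Cd4- Cd8b1- cells were next compared with the Tcf7+ CD8 cells of the same samples, which differ by rule only in having Cd8b1. UMIs were summed per sample and class, and the edgeR quasi-likelihood test with the sample as a block was adjusted over all genes by Benjamini-Hochberg. CPM values in these comparisons are scaled by TMM factors. Ikzf2 and 7 of 11 tested receptors shared by NK and T cells were higher. Of the tested genes, 11 of 14 for proliferation, 6 of 11 effector genes and 3 of 6 for checkpoints or exhaustion were lower. Of 5176 genes tested, 505 passed an adjusted p of 0.05 (9.76%), 282 higher (5.45%) and 223 lower (4.31%). Without the 18 Fscn1 cells it was 436, with 226 higher and 210 lower. Here and in the later comparisons between classes, cells of the other class with at least 2 Fscn1 UMIs were left out as well. In iKO sample 2 this took the Tcf7+ CD8 cells from 181 to 176.

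Ikzf2 stood at 696, 816, 678 and 460 CPM in iKO samples 1 to 4 and at 589, 606, 751 and 822 in control samples 1 to 4. In the Tcf7+ CD8 cells it stood at 161, 120, 157 and 93.8 CPM in iKO and at 87.7, 278, 140 and 191 in control. It was higher in the Tcf7+ Cd4- Cd8b1- cells in 8 of 8 samples, by 2.21 on the log2 scale (SE 0.14, edgeR adjusted p = 5.78e-09).

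Klra7 stood at 138 to 408 CPM against 17.7 to 53.8 in Tcf7+ CD8 cells, with no overlap (log2 2.66, SE 0.22, edgeR adjusted p = 1.63e-07). Klra9, which encodes another Ly49 receptor, stood at 117 ± 28.9 CPM against 10.3 ± 7.80 (log2 3.82), and Klrb1c at 79.0 ± 32.3 against 6.98 ± 4.11 (log2 3.49; SD, n = 8 samples). Of the 12 listed receptors shared by NK and T cells, 11 were tested, 7 were higher and 0 lower, with a median log2 of 0.90 against 0.01 over all genes tested. The other called members were Klra1 (3.12), Klra6 (1.70), Klrc2 (1.09), Cd7 (0.92), Klrk1 (0.90), which encodes NKG2D, and Il2rb (0.43), a subunit of the IL-2 and IL-15 receptors. Cd7 lost its call when cells were thinned to 2000 UMIs. Txk did not pass, at 383 ± 90.5 CPM against 319 ± 58.4 (edgeR adjusted p = 0.295). Of 12 listed NK cell genes 8 were tested, of which Klra9, Klrb1c, Fcer1g, Tyrobp and Klre1 were higher and Prf1, the gene of perforin, was lower.

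Cd40lg, 1 of 2 tested genes of the CD4 lineage list and the 1 called, stood at 49.5 ± 27.6 CPM against 5.25 ± 5.20 (log2 3.46), and Maf at 125 ± 54.5 against 24.4 ± 11.5 (log2 2.46). Tmem176b, a cation channel gene, stood at 135 ± 42.1 CPM against 17.9 ± 11.8 (log2 2.84). Fscn1 also rose (log2 3.14), which is the gene that marks the 18 cells described above. Both tested gamma-delta T cell genes rose, Trgv2 by 1.54 and Trgc2 by 1.07 on the log2 scale. Of 4 tested genes of a regulatory T cell list, Ikzf2, Il2ra (1.04) and Tnfrsf18 (0.64) rose, and Il2ra lost its call without control sample 1 or 4 or iKO sample 1 or 4 and by DESeq2. Those of the naive or central memory list mostly did not pass, and Lef1 did not, with 171 ± 34.8 CPM against 162 ± 56.8 (log2 0.12, edgeR adjusted p = 0.589). In that list of 15 genes 14 were tested, Il7r rose (0.40; lost without control sample 1, 2 or 3 or iKO sample 1) and Dapl1 fell, from 191 ± 31.5 CPM to 20.8 ± 15.0 (log2 -3.32).

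Proliferation genes were lower. Of 14 tested, 11 fell and 0 rose, with a median log2 of -1.25. Mki67, a marker of cycling cells, stood at 20.0 ± 19.5 CPM against 126 ± 38.8 in Tcf7+ CD8 cells (log2 -2.66, SE 0.23, edgeR adjusted p = 3.58e-07), lower in 8 of 8 samples. Of 11 tested effector genes 6 fell, among them Gzmk (16.4 ± 22.5 against 83.9 ± 24.6 CPM, log2 -2.74), Prf1 (log2 -1.94), Gzmb (179 ± 167 against 439 ± 489 CPM, log2 -1.20) and Ifng (log2 -1.11). Ifng lost its call by DESeq2. Xcl1 rose (log2 0.82), and its call was lost without control sample 1 or 2 or iKO sample 2 and by DESeq2. Of 6 tested checkpoint and exhaustion genes 3 fell: Pdcd1, the gene of PD-1 (38.3 ± 27.9 against 132 ± 77.8 CPM, log2 -1.81), Lag3 (-2.37) and Tox (-0.93), which lost its call without control sample 1 and by DESeq2. Cd8a, whose product pairs with that of the rule's Cd8b1, stood at 66.2 ± 44.6 against 497 ± 141 CPM (log2 -3.04), a direction close to the rule that is given as a description. Of 9 tested genes of the T cell receptor complex 4 fell, among them Cd3d (-0.35) and Trac (-0.34), which lost its call without control sample 3 or iKO sample 3, when thinned and without the 18 Fscn1 cells.

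Signs of handling and of other cells moved with this comparison, and their part in it was not tested. Of 14 tested genes of dissociation stress, 7 were higher and 0 lower, among them Fos (log2 1.01) and Jun (0.90). Of 6 tested macrophage genes Cst3 (2.19) and Lyz2 (0.37) were higher, and Lyz2 lost its call without control sample 3 or 4 or iKO sample 1 or 4. Without the cells of both classes that held at least 2 Fscn1 UMIs, Cst3 stood at 0.14 on the log2 scale (edgeR adjusted p = 0.849). Klra9, Klrb1c, Klra7, Cd40lg, Maf, Dapl1 and Mki67 kept their calls without those cells. The median depth was 6314 UMIs per Tcf7+ Cd4- Cd8b1- cell and 8494 per Tcf7+ CD8 cell. With all cells thinned to 2000 UMIs, 138 genes passed of fewer genes tested (1753).

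**Figure D4:**
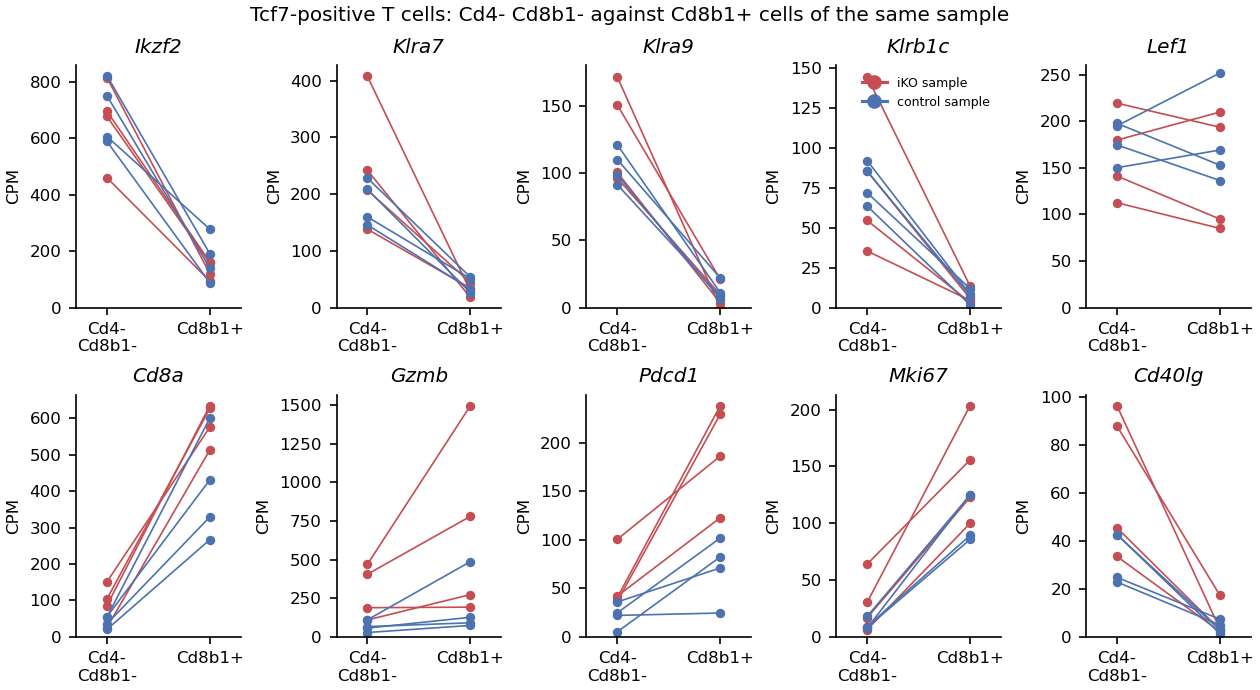
Each line joins the Tcf7+ Cd4- Cd8b1- cells (left) and the Tcf7+ Cd8b1+ cells (right) of 1 hashtagged sample, and the y axis gives TMM-scaled CPM of summed UMIs, 1 gene per panel. Ikzf2, Klra7, Klra9, Klrb1c and Cd40lg fall from left to right in 8 of 8 samples, Cd8a, Gzmb, Pdcd1 and Mki67 rise in 8 of 8, and Lef1 goes in both directions.

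Against the Tcf7+ CD4 cells of the same samples, receptors shared by NK and T cells were again higher, and both tested genes of the CD4 lineage list, Cd40lg and Tnfrsf4, were lower. Of 3572 genes tested, 329 passed (9.21%), 195 higher (5.46%) and 134 lower (3.75%). Without the cells of both classes that held at least 2 Fscn1 UMIs it was 407, with 231 higher and 176 lower. All 10 tested receptors shared by NK and T cells rose, with a median log2 of 2.34 against 0.00 over all genes tested. Klra7 stood at 151 to 452 CPM against 0 to 67.5 (log2 4.08, SE 0.38, edgeR adjusted p = 2.46e-06), and Klrc2 at 212 ± 75.1 against 37.8 ± 33.6 (log2 2.56). Txk (log2 1.21), Cd7 (2.14), Klrd1 (2.54), the CD94 partner of NKG2 proteins, and Klrk1 (2.05) also rose.

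Ikzf2 stood at 746 ± 137 CPM against 89.7 ± 26.4 (log2 3.03), although cells with a Foxp3 UMI were kept out of both classes. The chemokine genes Xcl1 (364 ± 390 against 9.14 ± 11.9 CPM, log2 4.86) and Ccl5 (5873 ± 1329 against 851 ± 607 CPM, log2 3.02) were higher in 8 of 8 samples. Ly6c2, a surface antigen of memory T cells, rose by 2.15 on the log2 scale. Lef1 again did not pass (log2 0.22, edgeR adjusted p = 0.637). Tnfrsf4, the gene of OX40, stood at 62.0 ± 36.9 CPM against 280 ± 90.7 (log2 -2.17), and Cd40lg at 54.4 ± 30.3 against 144 ± 27.0 (log2 -1.52), each lower in 8 of 8 samples. The further falls included Slamf1 (-2.17), a costimulatory receptor, Ly6a (-1.72), Rora (-1.39), Ctla4 (-1.67) and Pdcd1 (-1.30). Cd40lg was thus below the Tcf7+ CD4 cells and above the Tcf7+ CD8 cells, each by its own test. Of 9 tested genes of the T cell receptor complex 6 fell, with Trac at -0.40 on the log2 scale, a call that was lost when thinned and without the 18 Fscn1 cells.

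Against NK cells, T cell receptor genes were higher and cytotoxic genes lower. This comparison used the 4 samples with at least 20 cells of both classes (iKO samples 1 and 2, control samples 1 and 3). Of 4130 genes tested, 433 passed (10.5%), 240 higher (5.81%) and 193 lower (4.67%). Without the 18 Fscn1 cells it was 488, with 273 higher and 215 lower. Of 9 tested genes of the T cell receptor complex 7 rose, with Cd3d at 1025 ± 184 CPM against 47.7 ± 11.2 (log2 4.48) and Trac at 490 ± 140 against 44.9 ± 36.4 (log2 3.67). NK cells were taken without Cd3e, so this direction is tied to the classes. Bcl11b, a factor of T cell commitment, stood at 145 to 214 CPM against 0 to 9.61 (log2 5.47, SE 0.38, edgeR adjusted p = 1.82e-06). S1pr1, the receptor for exit from tissue, stood at 121 ± 22.6 CPM against 3.92 ± 3.53 (log2 4.94). Il7r (3.38), Ccr7 (3.78) and Lef1 (1.55) were also higher. Ikzf2 stood at 777 ± 101 CPM against 110 ± 86.1 (log2 2.93).

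All 12 listed NK cell genes were tested and lower, of which Ncr1 is tied to the choice of the NK class. Klra4 had 0 UMIs among 1464335 UMIs of these Tcf7+ Cd4- Cd8b1- cells and 566 in NK cells (473 CPM), which is at least 231-fold lower against a floor of 3 counts over the group. Gzma, a granzyme, stood at 133 ± 237 CPM against 8474 ± 4187 (log2 -6.72) and Prf1 at 39.2 ± 29.1 against 1085 ± 830 (log2 -4.54). Tyrobp was lower by 3.06 (log2 -3.06) and Fcer1g was at -2.42. Klra7 (-0.93), Klra9 (-0.93) and Txk (-0.62) were also below NK cells, and Klra7 lost its call when cells were thinned to 2000 UMIs. Klrc2 (-0.42, edgeR adjusted p = 0.121) and Cd7 (-0.20, edgeR adjusted p = 0.790) did not pass. In the other direction, Cd40lg had 0 UMIs among 1195645 UMIs of NK cells and 58 in the Tcf7+ Cd4- Cd8b1- cells (39.6 CPM), at least 15.8-fold higher.

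Between genotypes, the Tcf7+ Cd4- Cd8b1- cells of iKO tumours held more transcripts of type I interferon response genes than those of control tumours. Of 4605 genes tested by edgeR with 4 samples per genotype, 39 passed an adjusted p of 0.05 (0.847%), 25 higher in iKO (0.543%) and 14 lower (0.304%). Without the 18 Fscn1 cells it was 48, with 33 higher and 15 lower. The CPM of the genotypes did not overlap for 341 genes (7.4%). Of 48 listed type I interferon response genes 36 were tested, and 14 were higher and 0 lower. All 36 estimates were above 0, with a median log2 of 1.23 against -0.01 over all genes tested.

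Isg15, a ubiquitin-like protein induced by interferon, stood at 496, 551, 252 and 354 CPM in iKO samples 1 to 4 and at 103, 120, 41.5 and 64.7 CPM in control samples 1 to 4. The lowest iKO sample was above the highest control sample (log2 2.34, SE 0.29, edgeR adjusted p = 0.000742). Irf7, the transcription factor that amplifies the interferon response, stood at 205, 241, 155 and 149 CPM in iKO and at 48.2, 39.2, 27.6 and 33.7 CPM in control (log2 2.34, SE 0.24, edgeR adjusted p = 0.000178), again with no overlap. Ifit1, an RNA-binding antiviral protein, stood at 133, 157, 142 and 154 CPM in iKO and at 50.5, 28.7, 0 and 16.9 in control (log2 2.59, SE 0.44, edgeR adjusted p = 0.00784). Zbp1, a sensor of Z-form nucleic acid, stood at 353, 273, 219 and 154 CPM in iKO and at 84.9, 104, 62.2 and 59.0 in control (log2 1.68, edgeR adjusted p = 0.00327). In each of these genes the 4 iKO samples lay above the 4 control samples.

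The other called genes of the list were Ifi204 (log2 2.48), Usp18 (2.24), which removes ISG15 from proteins, Ifit3 (2.13), Ifi27l2a (2.01), Oasl2 (1.98), Bst2 (1.68), which encodes tetherin, Isg20 (1.68), Xaf1 (1.64), Phf11b (1.59) and Trim30a (1.13). Ifit3 and Trim30a have near-identical copies, which leaves their split of reads uncertain. Plac8, which is outside the list, stood at 532, 818, 767 and 517 CPM in iKO and at 213, 199, 145 and 202 CPM in control (log2 1.79, SE 0.19, edgeR adjusted p = 0.000178). Isg15, Irf7 and Plac8 kept their calls with any 1 sample left out, whereas Ifit3 lost its call without control sample 2, 3 or 4 or iKO sample 1 or 2. Usp18 lost it without control sample 2 or 4 or iKO sample 2, Isg20 lost it without control sample 3 or 4 or iKO sample 2, and Oasl2 and Xaf1 lost it without iKO sample 2. Leaving out iKO sample 2 gave 19 calls in all, and leaving out control sample 4 gave 24. Ifit1 and Ifit3 also lost their calls without the cells that held a Cd8a UMI, where iKO samples 1 and 3 fell under 20 cells. Isg15 and Irf7 kept theirs. Bst2 lost its call when cells were thinned to 2000 UMIs. Among cells with a Trac UMI alone, iKO samples 1 and 3 again fell under 20 cells. There, 19 of the named results between genotypes kept direction and call and 13 lost the call. Leaving out the cells with the NK panel kept only iKO sample 4 above that limit (23 cells), so its calls are not given.

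Genes that respond mainly to interferon gamma were tested apart. Of 23 tested, 0 passed with all cells and 4 were higher without the 18 Fscn1 cells, while 22 estimates were above 0 with a median log2 of 0.51. H2-K1, an MHC class I heavy chain, stood at 3290, 3502, 3308 and 2672 CPM in iKO and at 2589, 2432, 2422 and 2457 in control (log2 0.37, edgeR adjusted p = 0.0955). Gzmb, granzyme B, was the 1 effector gene of 10 tested that passed, at 476, 417, 193 and 111 CPM in iKO and at 112, 67.9, 57.6 and 28.1 in control (log2 2.16, edgeR adjusted p = 0.0145). Its groups overlapped by 1 sample, and the call was lost without control sample 2, 3 or 4 or iKO sample 1 or 2. Cxcl10, a chemokine for T cells that was picked after its values were seen, stood at 246, 398, 77.4 and 38.4 CPM in iKO and at 48.2, 18.3, 11.5 and 14.1 in control (log2 3.07, edgeR adjusted p = 0.0175). It too overlapped, and its call was lost without control sample 2, 3 or 4 or iKO sample 2.

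The lineage genes did not pass between genotypes. Klra7 (log2 0.46, edgeR adjusted p = 0.492), Lef1 (-0.17, edgeR adjusted p = 0.768), Txk (0.00, edgeR adjusted p = 0.996), Klrc2 (-0.67, edgeR adjusted p = 0.286), Cd7 (0.23, edgeR adjusted p = 0.757) and Ikzf2 (-0.06, edgeR adjusted p = 0.922) were all short of the threshold. Of 11 tested receptors shared by NK and T cells and of 9 tested genes of the T cell receptor complex, 0 were called. Il7r, the IL-7 receptor, stood at 399, 285, 516 and 525 CPM in iKO and at 606, 917, 1130 and 596 in control, with no overlap but short of the threshold (log2 -0.93, edgeR adjusted p = 0.0888).

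Genes of other cells were prominent among the 14 that were lower in iKO, and their part in the result was not tested. S100a9, a neutrophil gene, stood at 66.5, 59.5, 90.3 and 188 CPM in iKO and at 344, 243, 781 and 1566 in control (log2 -2.86, edgeR adjusted p = 0.0119), a call lost when iKO sample 2 was left out. Apoe, a macrophage gene, stood at 25.6, 25.1, 19.3 and 34.1 CPM in iKO and at 103, 104, 157 and 107 in control (log2 -2.14, edgeR adjusted p = 0.000882). Cxcl2 (-3.54) and Pf4 (-2.43), a platelet and macrophage gene, fell as well. The 6 listed neutrophil genes summed to 111 to 479 CPM in the iKO and 462 to 2625 CPM in the control Tcf7+ Cd4- Cd8b1- cells, and to 790 to 7323 CPM and 4966 to 12473 CPM over whole samples. The 10 macrophage genes summed to 443 to 5293 CPM in iKO and 2182 to 4361 CPM in control, and without the 18 Fscn1 cells to 420 to 2235 CPM and 764 to 930 CPM. The ribosomal protein gene Rps10, which has near-identical copies, is outside the gene lists and the 10 strongest falls. It stood at 2073, 1958, 2302 and 1993 CPM in iKO and at 3276, 3874, 3613 and 3647 in control (log2 -0.79).

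**Figure D5:**
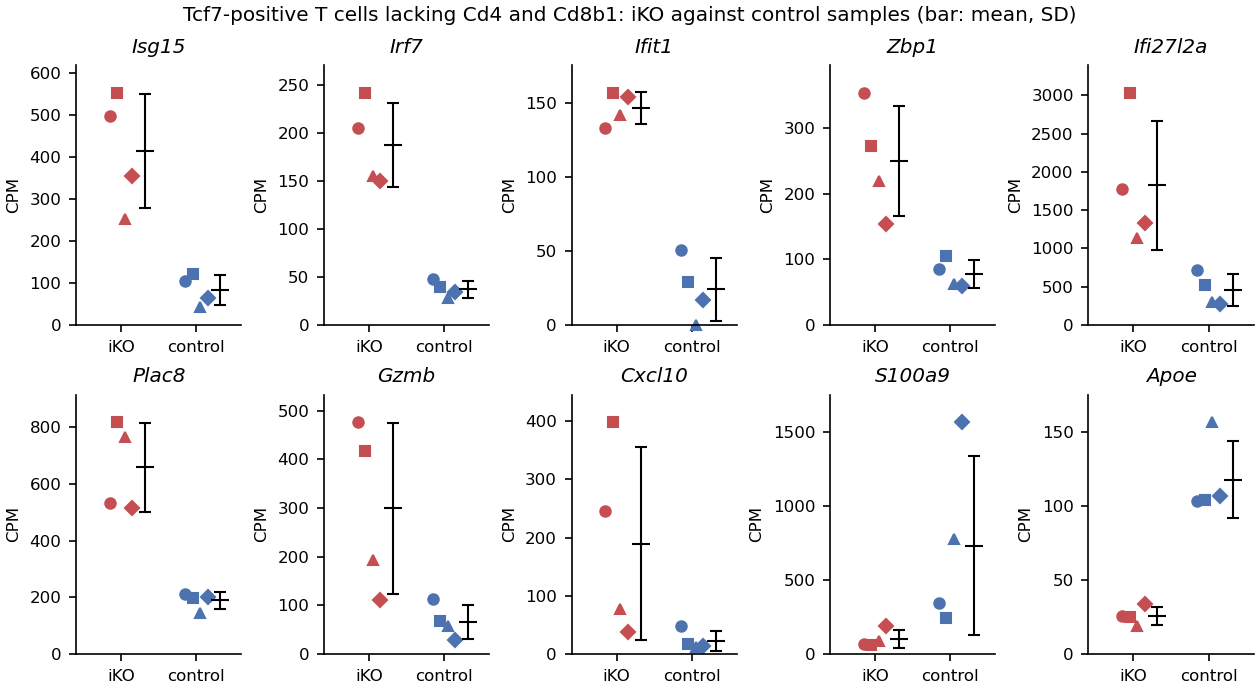
Points are hashtagged samples (4 per genotype), bars the mean and SD, and the y axis gives TMM-scaled CPM in Tcf7+ Cd4- Cd8b1- cells, 1 gene per panel. Isg15, Irf7, Ifit1, Zbp1, Ifi27l2a and Plac8 are higher in all 4 iKO samples, S100a9 and Apoe are lower in all 4, and Gzmb and Cxcl10 overlap.

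Whether the genotype difference of these cells departed from that of the Tcf7+ CD8 cells was tested as an interaction. Of 6053 genes tested by edgeR, 0 passed (0.0%), 281 had an unadjusted p under 0.05, and DESeq2 called 0. In the Tcf7+ CD8 cells, Isg15 stood at 428, 612, 165 and 124 CPM in iKO and at 121, 39.0, 85.3 and 38.3 in control. The 2 differences for Isg15 differed by 0.29 on the log2 scale (SE 0.43), and those for Irf7 by 0.07. Of 42 tested type I interferon genes, 20 had an interaction above 0, with a median log2 of -0.04.

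Promoters of the genes that were higher in iKO were read from RefSeq sequences of build GRCm38.p6, whereas the deposited counts use GRCm39, so the coordinates below are of the former. The motif GAAANNGAAA, or TTTCNNTTTC on the other strand, is the core of the interferon-stimulated response element, and it was searched in the 250 bases before each start site. It was found in 8 of the 18 matched promoters of the 25 higher genes (44.4%), in 1 of 13 of the lower genes (7.69%), in 152 of 3717 of the genes tested (4.09%) and in 936 of 27025 promoters of the table (3.46%). This is a description of letters and not of bound sites. The 60 bases around the match nearest the start site are shown for 4 called genes, to place the element next to the values above, with every match in the stretch in capitals and each sequence written 5′ to 3′ along the gene's strand.
Isg15 (chr4:156200850-156200909, minus strand): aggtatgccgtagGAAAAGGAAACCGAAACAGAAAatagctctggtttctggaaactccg
Ifit1 (chr19:34640779-34640838, plus strand): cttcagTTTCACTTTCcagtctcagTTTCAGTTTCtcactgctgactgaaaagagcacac
Ifit3 (chr19:34583382-34583441, plus strand): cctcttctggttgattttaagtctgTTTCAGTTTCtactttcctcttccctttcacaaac
Phf11b (chr14:59341346-59341405, minus strand): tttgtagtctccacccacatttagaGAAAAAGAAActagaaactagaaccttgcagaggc
The stretch of Isg15 holds 3 overlapping matches and that of Ifit1 holds 2 apart, with 1 each in Ifit3 and Phf11b. The match nearest the start site begins 66 bases before it in Isg15, 85 in Ifit1, 122 in Ifit3 and 50 in Phf11b.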

How the data were processed

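The authors deposited raw UMI counts per gene and barcode, 1 matrix per hashtagged sample; they were made with Cell Ranger 7.1.0 on GRCm39, per the submitters' processing notes. Hashtags and spike-ins were left out, which left 32432 genes. Barcodes with at least 300 genes and at most 10% mitochondrial UMIs were kept, 22490 of 23731, and doublets were scored with Scrublet (scanpy 1.11.5) but not removed. Counts were summed per sample and class for profiles of at least 20 cells and tested with edgeR 4.0.16 in R 4.3.3 (TMM, filterByExpr, quasi-likelihood test, Benjamini-Hochberg over all genes tested), with the sample as a block between classes. The scripts were tested on simulated data. Shares were compared by exact permutation tests over samples, two-sided. DESeq2 1.42.0, other filters and thinning were alternatives.

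Named were the 10 strongest rises and falls per comparison with an adjusted p under 0.05, a mean of at least 20 CPM and, between classes, the same sign in every sample, or, between genotypes, no overlap. Genes of the 23 lists could be named whatever their result. Cells and lists were chosen with earlier results of these data known. The 8 hashtagged samples share 2 labels, and a sample's number is its matrix's own. Counting intervals and floors cover counting error only.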

Additional observations from a re-analysis of the deposited data

Results flagged for a closer look

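A sample that stands far from the other 3 was sought in 60 groups of 4 samples. These held the shares of the cells, the genes named between genotypes, and the lineage genes with Ikzf2. In all, 4 were found, where chance gives about 1 in 20. Apoe stood at 157 CPM in the Tcf7+ Cd4- Cd8b1- cells of control sample 3 and at 103 to 107 CPM in the other control samples. Pf4 stood at 70.5 CPM in control sample 2 and at 48.4 to 50.6 CPM in the others. Wfdc17 stood at 72.6 CPM in iKO sample 4 and at 18.8 to 25.8 CPM in the other iKO samples. Cd7 stood at 324 CPM in iKO sample 2 and at 120 to 137 CPM in the other iKO samples, on the scale without TMM factors.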

How the results depend on the processing

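Without a filter on low counts, the genes called were 178 between genotypes, 1043 against Tcf7+ CD8 cells, 673 against Tcf7+ CD4 cells, 728 against NK cells and 33 for the interaction. With cells thinned to 2000 UMIs, fewer genes were tested. The calls were then 11 of 1333 between genotypes, 138 of 1753 against Tcf7+ CD8 cells, 151 of 880 against Tcf7+ CD4 cells and 190 of 968 against NK cells. DESeq2 called 270 against NK cells. Leaving out cells with a Cd8a UMI, which dropped 2 samples under 20 cells, gave 23 between genotypes. Leaving out 1 sample gave 19 to 58 between genotypes, 355 to 536 against Tcf7+ CD8 cells, 253 to 411 against Tcf7+ CD4 cells, 322 to 388 against NK cells and 0 to 1 for the interaction. Among kept barcodes the thinned share differed by -1.39 points, and leaving out 1 sample gave -2.25 to -1.79 points (exact permutation p = 0.0571), with -9.77 to -7.13 among T cells and -15.4 to -12.6 among Tcf7+ T cells. The replicate block by sample number called 58 genes between genotypes, 37 higher and 21 lower. Deviations from the group means correlated between same-numbered samples at 0.0075, 0.025, 0.188 and 0.061. Profiles of 21 to 73 cells hold much counting noise, so these values cannot decide whether the numbers pair the samples.

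The panel shares that follow are means over the 8 samples. The NK panel share of 14.1% was 6.40% at 1000 UMIs, 40.7% unthinned, 48.3% with 1 gene and 3.38% with 3. The Cd8a share of 7.95% was 5.34% at 1000 UMIs and 26.4% unthinned, and the gamma constant share of 12.2% was 3.84% and 27.2%. The share with none of these panels, 68.8%, was 85.0% at 1000 UMIs and 36.6% unthinned.

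The named genes gave 160 results, each a gene in 1 comparison, so a gene can count more than once. Of their 2115 alternatives, 1919 kept direction and call, 191 lost the call and 5 turned direction. In every alternative in which the gene was tested, 111 of the 160 results kept both. Many genes were not tested in all alternatives. With cells thinned to 2000 UMIs, 68 results kept both, 14 lost the call and 1 turned direction. The rest of the 160 were not tested at that depth. Lef1 against Tcf7+ CD8 cells was -0.13 thinned, and Cst3 without the Fscn1 cells was -0.15 against Tcf7+ CD4 cells and -0.35 against NK cells. Leaving out 1 sample put Cd7 against NK cells between -0.66 and 0.16, above 0 without control sample 1 (0.16) or 3 (0.15). The causes were not tested. Few cells per sample limit the depth: a gene at 0 of 375 cells allows up to 0.8% of cells with a UMI, for counting error alone.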

Other observations

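Further lists gave values against the Tcf7+ CD8 cells of the same samples. Both tested genes of the innate lymphoid list were higher, Gata3 at 63.9 ± 21.1 CPM against 37.4 ± 6.12 (log2 0.70) and Rora at 91.7 ± 30.7 against 57.6 ± 11.7 (log2 0.62), each in 7 of 8 samples, and DESeq2 did not call Gata3. Il18r1, a receptor of innate-like T cells, was higher in 7 of 8 samples (log2 0.46). In the virtual memory list of 7 genes, Cd44 (log2 0.77) and Il2rb (0.43) were higher in 8 of 8 samples and Ly6a (-0.88) was lower in 8 of 8.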
